A study of Mus musculus with 8 samples.

Results

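The set described here holds 34 genes of blood vessels, lymphatic vessels, the mural cells around vessels and the growth factors that act on them. They were chosen by gene symbol as a named list, and all 34 were found among the 38375 genes of the table. Expression was measured by poly(A)+ RNA sequencing of inguinal white adipose tissue (ING WAT), a subcutaneous fat depot, in C57BL/6j mice. The younger group (postnatal day 21, PN21) was made up of 4 mice, numbered m1, m49, m138 and m145. The older group (postnatal day 98, PN98) held 4 mice, m35, m106, m114 and m125, and age was the only labelled difference between the groups. In the study design, females were killed at weaning, and males were weaned and kept on a synthetic diet. The males kept to PN98 later received either a standard synthetic or a Western-style diet. The sources used here do not give the diet of the sequenced PN98 mice or the sex of the sequenced PN21 mice. All 8 libraries carried transcripts of the Y chromosome (*Ddx3y* at 18.1 to 25.9 FPKM), and *Xist* was at 0.247 to 0.832 FPKM in the PN21 mice and at 0 to 0.00704 FPKM in the PN98 mice, without overlap. Each library was 1 mouse, and no mice were pooled as far as the labels say.

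Blood endothelial cells line the blood vessels and are joined by proteins such as PECAM1 and VE-cadherin, and they receive growth signals through the VEGF receptors and the angiopoietin receptor TIE2. Lymphatic endothelial cells are set apart by the transcription factor PROX1 and by surface proteins such as LYVE1, and respond to VEGF-C through VEGFR3. Mural cells, the pericytes and smooth muscle cells, wrap the endothelial tube. Fat tissue is richly supplied with capillaries, and adipocytes are a known source of VEGF-A.

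Expression is given as FPKM, the number of fragments divided by transcript length and library size, summed over the transcripts of each gene. Fold changes are log2 differences, PN98 minus PN21, on the log2(FPKM + 1) scale, with a standard error from limma and a Benjamini-Hochberg adjusted p over all genes tested. Read counts were not part of the files, so library depth is unknown and counting error cannot be stated. Labels name the mice as separate samples, so the spread is between animals. Of the 16105 genes with a mean of at least 1 FPKM, 850 passed an adjusted p of 0.05 (5.28%), 472 lower (2.93%) and 378 higher (2.35%) at PN98. Over all genes the median fold change was −0.21, and it was −0.03 after median of ratios scaling and 0.01 after scaling to nuclear genes. Changes below about this shift therefore depend on the scaling, and directions that flipped are named where they occur.

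Mouse m35 stood apart from the other PN98 mice also in genes outside the set. *Ucp1*, used in the study as a browning marker, was at 7.41 FPKM in m35, against 278, 56.3 and 356 FPKM in m106, m114 and m125. The other browning marker, *Cidea*, was at 55.2 FPKM in m35, against 721, 187 and 1064 FPKM. In both, m35 was the lowest and m125 the highest PN98 mouse. The summed level of 10 lymphocyte genes was 991 FPKM in m35, against 191, 62.1 and 20.9 FPKM in m106, m114 and m125, and 452 to 1071 FPKM at PN21. All 10 lymphocyte genes were lower in mean at PN98 and 0 of the 10 passed the adjusted test, which 4 passed without adjustment. In the list of 6 genes of lymph node high endothelium and stroma, all 6 were lower in mean and 2 passed the test, *Glycam1* (−6.11, adjusted p = 0.0213) and *Madcam1* (−2.03, adjusted p = 0.0347). The summed level of the 6 genes ran from 684 to 1527 FPKM at PN21 and from 13.1 to 373 FPKM at PN98. *Glycam1* alone held 578 to 1307 FPKM at PN21 and 1.83 to 105 FPKM at PN98. In m35, *Glycam1* and *Madcam1* were below all PN21 mice, and *Ccl19* and *Cxcl13* were inside the PN21 range. *Ccl21b* (156 FPKM) and *Cr2* (13.7 FPKM) were above all PN21 mice in m35. No gene of the 2 lists was listed at 0 in any mouse. The part of these cells in the vessel results was not tested, and each count below that rests on m35 is also given without it. In such bulk tissue, fewer vessel cells and less RNA per vessel cell cannot be told apart.

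None of the vascular genes passed the test between the ages. Of the 34 genes, 32 had a mean of at least 1 FPKM and were tested, and 0 of the 32 had an adjusted p under 0.05 in limma, where 5.28% of all genes did. With an unadjusted p under 0.05 there were 4 genes, *Lyve1*, *Plvap* and *Emcn* lower and *Vegfb* higher, where 27.2% of all genes passed, 19.1% lower and 8.18% higher. Of the 32 genes, 26 were lower and 6 higher in mean at PN98. Their median fold change was −0.31, beside −0.21 for all genes, and after median of ratios scaling it was −0.10 beside −0.03, with 18 genes lower and 14 higher. This gap to all genes turned around without m125 or without m1, and kept its direction when any other single mouse was left out. Without m125 the median was −0.10 beside −0.15 for all genes (19 lower, 13 higher) and without m1 −0.19 beside −0.21 (22 lower, 10 higher), while without m35 it was −0.55 beside −0.27 (28 lower, 4 higher). With m35 left out, 4 genes were lower (*Lyve1*, *Plvap*, *Emcn* and *Icam2*) and 1 was higher (*Vegfb*) at an adjusted p under 0.05, where 18.1% of all genes were called lower and 4.3% higher. Weighting the mice in limma by their fit to the model called 5 genes lower (*Lyve1*, *Plvap*, *Emcn*, *Icam2* and *Angpt2*), where 21.7% of all genes were called lower.

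**Figure D1:**
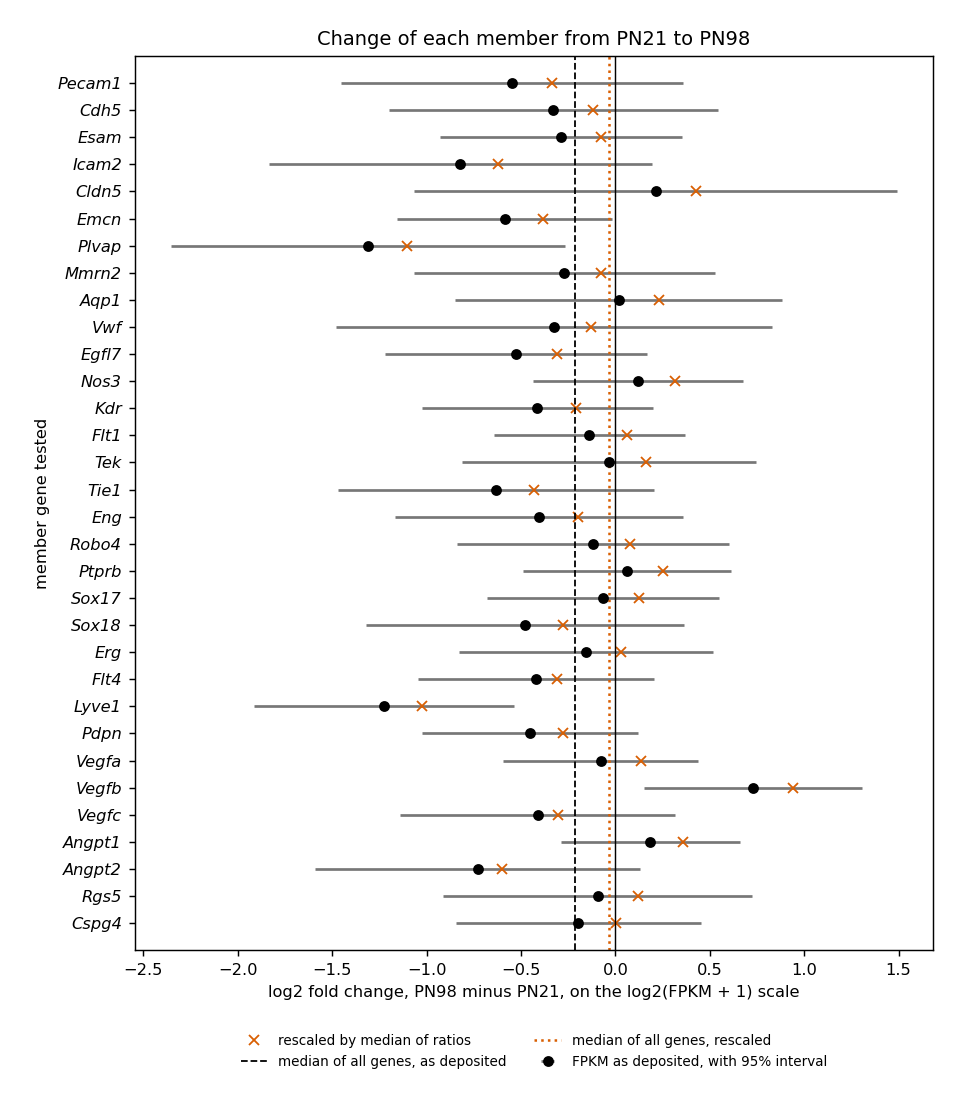
Log2 fold change (PN98 minus PN21, log2(FPKM + 1) scale, x axis) of the 32 tested genes in order of role. Black points with bars are limma estimates with 95% intervals (n = 4 mice per age), orange crosses are the estimates after median of ratios scaling, and the vertical lines mark 0 and the median of all genes, −0.21 as deposited and −0.03 rescaled. The intervals of *Lyve1*, *Plvap*, *Emcn* and *Vegfb* lie on one side of 0, and those of the other 28 genes cross it.

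In these genes the PN98 mice were spread more widely than in most others. The ratio of the highest to the lowest PN98 mouse had a median of 3.04 over the 32 genes, against 1.90 over 14998 genes above 0 in every mouse. At PN21 the same medians were 1.67 and 1.69. All these values are from FPKM as deposited. Among the PN98 mice, the factors of median of ratios scaling were also highest in m35 (1.14) and lowest in m125 (0.787). The spread after this scaling is not given. Mouse m35 had the highest PN98 value in 26 of the 32 genes, and m125 the lowest in 27. Over all genes tested, m35 was the highest PN98 mouse in 51.5% and m125 the lowest in 50.6%. At PN21, m49 was the lowest mouse in 22 of the 32 genes, against 26.2% of all genes. The 22 blood endothelial genes summed to 1335 FPKM in m35, 761 in m106, 866 in m114 and 410 in m125, beside 1134, 735, 1054 and 1122 FPKM in m1, m49, m138 and m145. The value of m35 was above all PN21 mice and that of m125 below all of them. Such extremes at PN98 were not particular to the set. The 9 macrophage genes summed to 841 FPKM in m35 and 187 in m125, and the 10 lymphocyte genes to 991 and 20.9 FPKM, each the highest and lowest PN98 sum. In the 10 adipocyte genes m35 had instead the lowest PN98 sum, 8891 FPKM, and m114 the highest, 11213 FPKM.

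**Figure D2:**
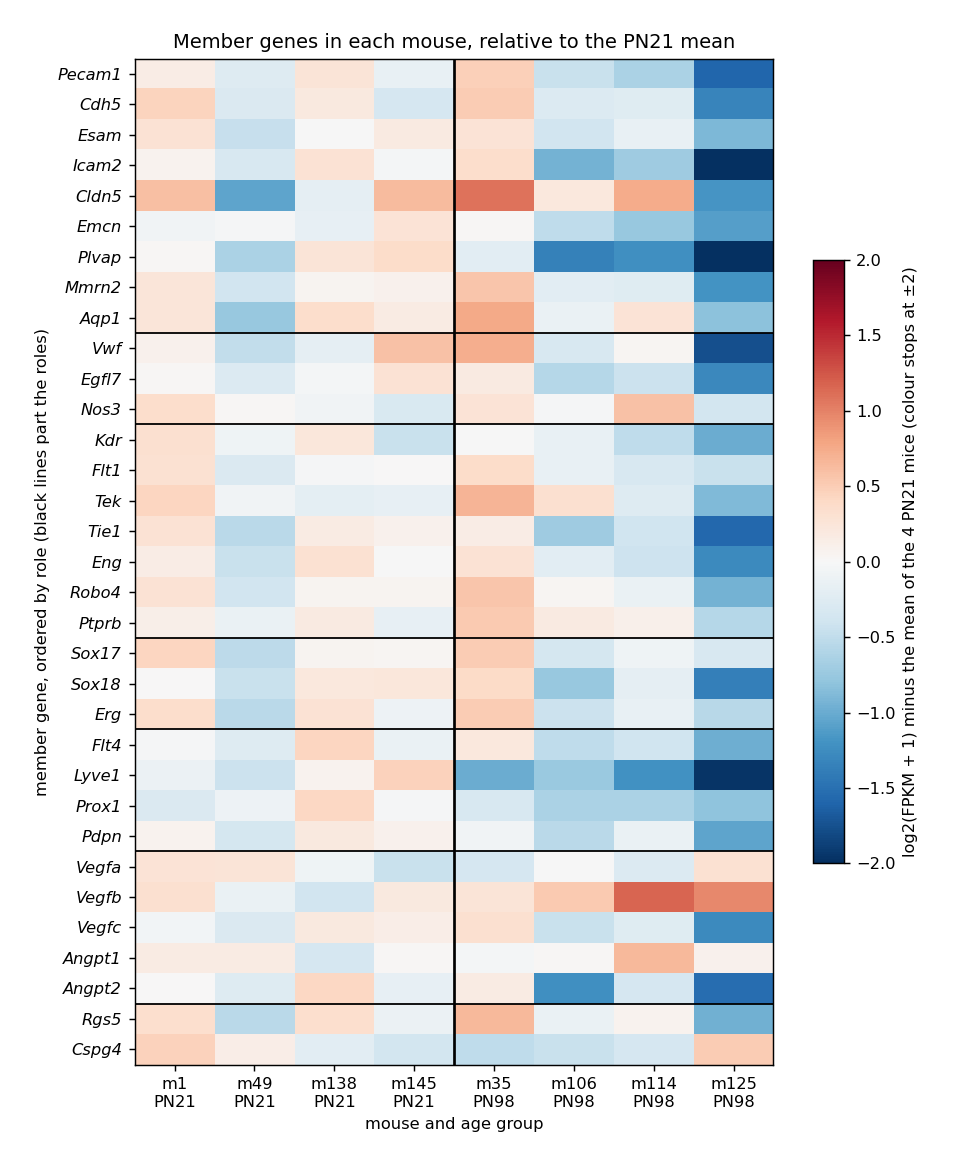
Expression of the 33 genes with a value above 0 (rows, in order of role, with black lines between roles) in each of the 8 mice (columns). Colour is log2(FPKM + 1) minus the mean of the 4 PN21 mice, red for higher and blue for lower. In the PN98 columns, the one of m35 is mostly red and that of m125 mostly blue, with *Lyve1* blue in all 4 PN98 mice and *Vegfb* red in all 4.

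Among the junction and surface proteins of blood endothelium, 7 of 9 genes were lower in mean and 0 passed the adjusted test. *Pecam1*, which encodes an adhesion protein at endothelial contacts (chromosome 11, 106654217 to 106750628 of GRCm38), was measured at PN21 as 87.8 FPKM in m1, 66.4 in m49, 95.4 in m138 and 71.3 in m145. At PN98 m35, m106, m114 and m125 had 111, 57.9, 50.6 and 25.7 FPKM. The PN98 values lay on both sides of the whole PN21 range, and the fold change was −0.55 (standard error 0.40, adjusted p = 0.385 in limma), with −0.89 without m35 and −0.20 without m125. *Cdh5*, which encodes VE-cadherin, had 75.7, 45.1, 63.4 and 43.6 FPKM at PN21 and 79.7, 45.8, 46.8 and 21.6 FPKM at PN98, in the same orders of mice. Here m106 and m114 lay inside the PN21 range, m35 above and m125 below it, with a fold change of −0.33 (standard error 0.38, adjusted p = 0.581).

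*Plvap* and *Emcn* are described because of their values. *Plvap*, which encodes the protein of the diaphragms that close fenestrae and caveolae of capillaries (chromosome 8, 71497765 to 71511752), had 58.0, 36.3, 68.2 and 74.1 FPKM at PN21. At PN98 it had 49.5, 21.8, 23.9 and 9.55 FPKM, so that m106, m114 and m125 were below every PN21 mouse and m35 was inside their range. Its fold change was −1.31 (standard error 0.45, 95% interval −2.35 to −0.27, adjusted p = 0.125), the lowest of the 32 genes. Without m35 it was −1.68 (adjusted p = 0.0241, with 0.0207 to 0.253 over all alternatives), and without m125 −0.93 (adjusted p = 0.197). *Emcn*, which encodes endomucin, a sialoglycoprotein of venous and capillary endothelium, had 19.9, 20.5, 18.7 and 25.5 FPKM at PN21. The PN98 values were 21.3, 14.5, 12.01 and 9.21 FPKM, and m35 was again the 1 mouse inside the PN21 range (−0.59, standard error 0.25, adjusted p = 0.174). Without m35 the fold change was −0.79 (adjusted p = 0.0304, with up to 0.372 over all alternatives), and without m125 −0.41 (adjusted p = 0.310).

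*Icam2*, an adhesion protein for leukocytes, was called without m35 only among the fits that left out 1 mouse (−1.21, adjusted p = 0.0389, with up to 0.453 over all alternatives), and had −0.82 in all 8 mice (adjusted p = 0.254). Without m125 it had −0.43 (adjusted p = 0.453). *Esam*, an adhesion protein of tight junctions, and *Mmrn2*, a matrix glycoprotein of the endothelium, had fold changes of −0.29 and −0.27. *Cldn5*, the tight junction claudin of endothelium, had 0.21 with a standard error of 0.56, and its PN98 values ran from 36.03 FPKM in m125 to 177 FPKM in m35. The water channel gene *Aqp1* had 0.02, with a 95% interval from −0.85 to 0.88, and neither its sign nor that of *Cldn5* held when single mice were left out.

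Of the secreted and stored products, *Vwf*, the clotting factor kept in endothelial storage granules, had 25.9, 17.1, 21.3 and 37.2 FPKM at PN21 and 41.1, 19.3, 25.2 and 6.48 FPKM at PN98. The highest and the lowest of all 8 values were both PN98 mice, m35 and m125, and the fold change was −0.33 (standard error 0.50, adjusted p = 0.689). Transcripts annotated as other than protein coding held 76.4% to 92.4% of the *Vwf* sum, so the level is that of all its transcripts and not of the coding one. *Egfl7*, a secreted protein of the endothelial matrix, had the highest FPKM of the 34 genes, 281 ± 45.9 at PN21 and 206 ± 84.0 at PN98 (mean ± SD, n = 4 each), spread over 19 transcripts with 40.2% to 51.2% in non-coding ones. Its fold change was −0.53 (adjusted p = 0.280). *Nos3*, the endothelial nitric oxide synthase, had a mean of 11.9 ± 2.49 FPKM at PN21 and of 13.2 ± 4.00 FPKM at PN98 (SD, n = 4 each).

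Of the 7 receptors, 6 were lower in mean and 0 passed the test. *Kdr*, which encodes VEGFR2, the main signalling receptor of VEGF-A (chromosome 5, 75932827 to 75978458), had 29.0, 21.7, 27.3 and 16.7 FPKM at PN21 and 22.9, 20.8, 16.1 and 11.1 FPKM at PN98. PN98 mice m35 and m106 were inside the PN21 range and m114 and m125 below it, with a fold change of −0.41 (standard error 0.27, adjusted p = 0.333). *Flt1*, which encodes VEGFR1, had 15.9, 10.1, 12.5 and 12.7 FPKM at PN21 and 16.7, 11.3, 9.89 and 9.03 FPKM at PN98. These ranges nearly coincide, and the 95% interval of the difference, −0.65 to 0.37, was narrower than a log2 change of 1 either way. *Tek*, which encodes the angiopoietin receptor TIE2, had 16.4, 11.3, 10.3 and 10.6 FPKM at PN21 and 19.7, 15.1, 9.83 and 6.00 FPKM at PN98. Its values at PN98 again enclosed the PN21 range (−0.04, standard error 0.34, 95% interval −0.81 to 0.74).

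*Tie1*, the orphan partner of TIE2, had the lowest fold change of the 7 receptors (−0.63, standard error 0.36, adjusted p = 0.283). The TGF-β co-receptor gene *Eng* had −0.40, the guidance receptor *Robo4* had −0.12 and the phosphatase *Ptprb*, which acts on TIE2 and VE-cadherin, had 0.06. *Flt1*, *Tek* and *Robo4* were above 0 after median of ratios scaling and after scaling to nuclear genes, so that no direction can be given for them. Of the transcription factors, *Sox18* had −0.48, *Erg* −0.16 and *Sox17* −0.06, with adjusted p-values from 0.415 to 0.894, and *Erg* and *Sox17* also changed sign with both scalings.

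All 3 tested lymphatic genes were lower in mean at PN98, with a median of −0.45 and 0 called. *Lyve1*, the hyaluronan receptor of lymphatic capillaries that some tissue macrophages also carry (chromosome 7, 110850607 to 110863239), had 25.5, 20.3, 28.9 and 38.5 FPKM at PN21. At PN98 it had 13.4, 16.1, 11.4 and 6.31 FPKM, and every PN98 mouse was below every PN21 mouse. With all 8 mice it was the only tested gene of the set whose ages did not overlap. Of all genes tested, 10% had that order in this direction and 6.06% in the other, where none of the set was found. Without m35, all PN98 mice were also below all PN21 mice for *Pecam1*, *Icam2*, *Plvap*, *Emcn*, *Egfl7*, *Flt4* and *Angpt2*. They were above all PN21 mice for *Vegfb*, and the share of all genes with such an order without m35 is not given. The fold change of *Lyve1* was −1.23 (standard error 0.30, 95% interval −1.92 to −0.54), and the adjusted p of 0.0551 in limma missed the threshold. It was −1.31 without m35 (adjusted p = 0.0338) and lay between −1.39 and −0.88 over all alternatives, with adjusted p-values from 0.0337 to 0.133. Of 9 macrophage genes, 0 passed the test, 6 were lower and 3 higher in mean, and their summed level was 432 to 707 FPKM at PN21 and 187 to 841 FPKM at PN98. *Lyz2* alone held 287 to 551 FPKM at PN21 and 135 to 669 FPKM at PN98. *Marco* was the 1 macrophage gene without overlap, lower at PN98 by 2.13 (adjusted p = 0.0804 in limma). It had 17.6 to 39.6 FPKM at PN21 and 1.05 to 15.8 FPKM at PN98. The part of macrophages in the *Lyve1* values was not tested.

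*Prox1*, the transcription factor that sets lymphatic identity (chromosome 1, 190118035 to 190170714), was below the mean level needed for the test. It had 0.445, 0.647, 1.35 and 0.746 FPKM at PN21 and 0.408, 0.143, 0.138 and 0.0154 FPKM at PN98. No PN98 mouse reached the PN21 values, although m35 came close to m1. In the fit without a filter on low values its difference was −0.60 (adjusted p = 0.108). The mean level was 0.796 FPKM at PN21 and 0.176 FPKM at PN98. At such levels the 1 FPKM added before the logarithm makes the difference smaller than that of the FPKM themselves. *Flt4*, which encodes VEGFR3, had a mean of 2.04 ± 0.673 FPKM at PN21 and of 1.34 ± 0.817 FPKM at PN98 (SD, n = 4 each). Podoplanin, encoded by *Pdpn* and present on lymphatic endothelium and on stromal cells of lymph nodes, had a fold change of −0.45 (standard error 0.25, adjusted p = 0.263). *Mmrn1*, a multimerin of lymphatic endothelium and platelets, was listed at 0 in all 8 mice and was not tested.

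**Figure D3:**
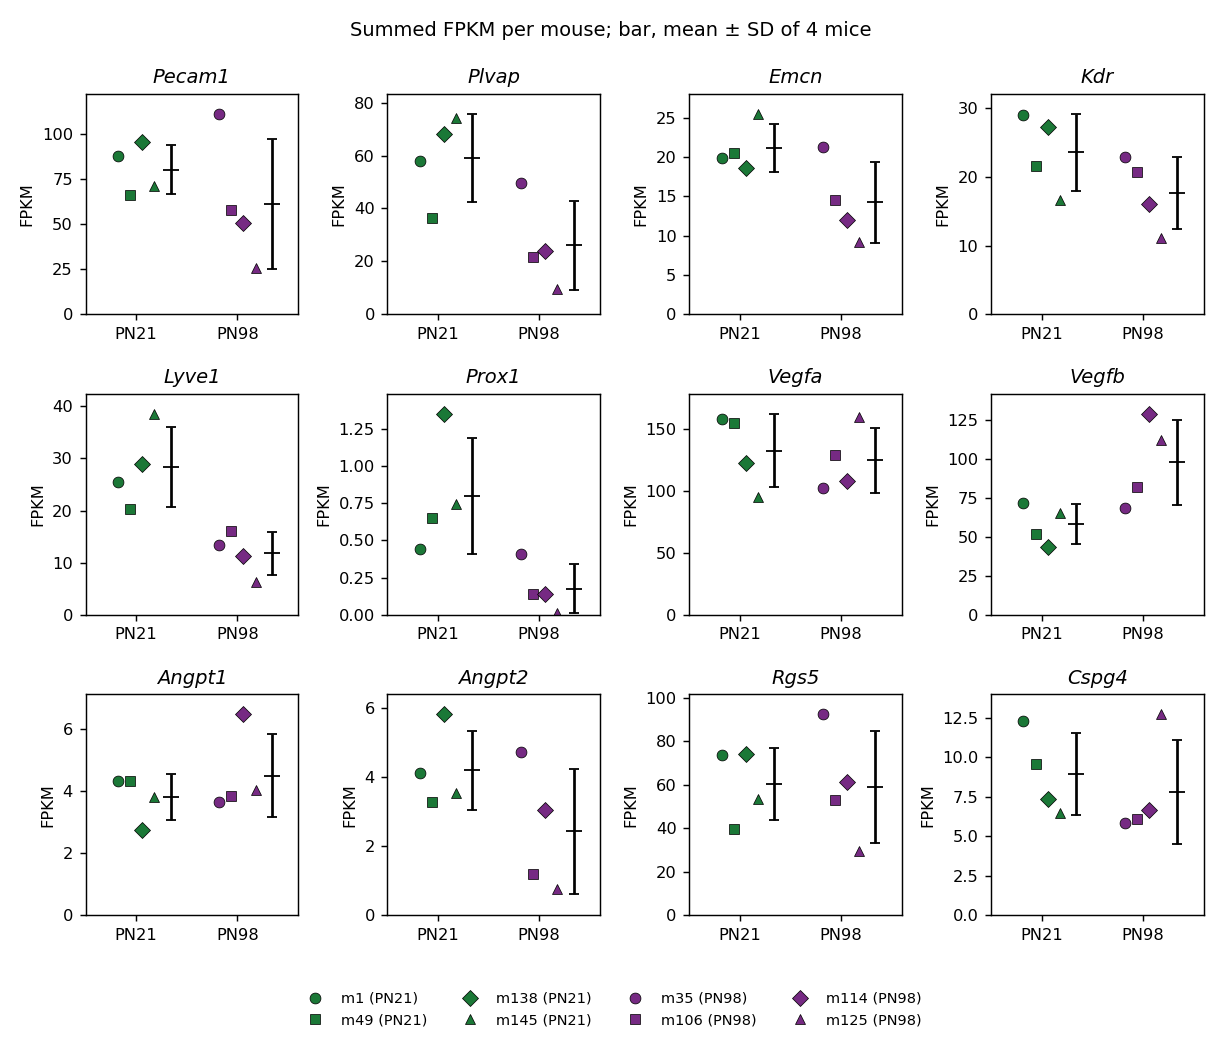
Summed FPKM (y axes, starting at 0) of 12 genes in each mouse, PN21 in green and PN98 in purple, with the same symbol for the same mouse in every panel and bars for mean ± SD (n = 4). The 4 purple points lie below the 4 green points for *Lyve1* and *Prox1*, while in the panels of *Pecam1* and *Rgs5* the PN98 mice m35 and m125 lie above and below the PN21 range.

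Of the 5 growth factors, 3 were lower and 2 higher in mean and 0 passed the test. *Vegfa*, which encodes the chief growth factor of blood vessels (chromosome 17, 46016993 to 46032369), had 157, 154, 122 and 94.8 FPKM at PN21 and 102, 129, 107 and 159 FPKM at PN98. The ranges overlapped almost fully and m125, the lowest mouse in most endothelial genes, had the highest *Vegfa* value. The fold change was −0.08 (standard error 0.22, 95% interval −0.59 to 0.44), and its sign turned with both scalings. *Vegfb*, a ligand of VEGFR1 (chromosome 19, 6982473 to 6987651), is described because of its values. It had 71.5, 51.6, 43.2 and 65.5 FPKM at PN21 and 68.5, 82.1, 129 and 112 FPKM at PN98, where m106, m114 and m125 were above every PN21 mouse and m35 was not. Its fold change of 0.73 was the highest of the 32 genes (standard error 0.25, 95% interval 0.15 to 1.31, adjusted p = 0.125). Without m35 it was 0.88 (adjusted p = 0.0397, with up to 0.249 over all alternatives), and without m125 0.65 (adjusted p = 0.226). The lymphatic growth factor *Vegfc* had a mean of 2.28 ± 0.474 FPKM at PN21 and of 1.63 ± 1.11 FPKM at PN98 (SD, n = 4 each).

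*Angpt1*, which encodes the activating ligand of TIE2, had 4.31, 4.32, 2.74 and 3.81 FPKM at PN21 and 3.64, 3.85, 6.47 and 4.03 FPKM at PN98. All but m114 lay inside the PN21 range (0.18, standard error 0.21, adjusted p = 0.570). *Angpt2*, whose product is released by endothelium and can oppose ANGPT1, had 4.12, 3.28, 5.81 and 3.54 FPKM at PN21 and 4.71, 1.19, 3.04 and 0.767 FPKM at PN98. Mice m106, m114 and m125 were below the PN21 range and m35 inside it (−0.73, standard error 0.38, adjusted p = 0.237). Of the mural genes, *Rgs5*, a regulator of G protein signalling in pericytes, had 73.7, 39.8, 74.0 and 53.5 FPKM at PN21 and 92.4, 52.9, 61.2 and 29.6 FPKM at PN98, with the PN98 mice on both sides of the PN21 range (−0.09, standard error 0.36, adjusted p = 0.881). *Cspg4*, which encodes the proteoglycan NG2, ran the other way within PN98, at 5.81, 6.10 and 6.66 FPKM in m35, m106 and m114 and 12.7 FPKM in m125. Both mural genes crossed 0 with the 2 scalings.

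Ratios between pairs of these genes within a mouse do not move with the scaling of its library. In 5 ratios tested by a two-sided exact permutation test over 70 splits, whose lowest possible p is 0.0286, 0 passed after Benjamini-Hochberg adjustment. With 5 ratios adjusted together, a ratio that reached this lowest p alone could not pass. Its adjusted p therefore does not decide whether it differed between the ages. *Lyve1* over *Pecam1* was 0.290, 0.306, 0.303 and 0.540 in the PN21 mice and 0.120, 0.278, 0.224 and 0.245 in the PN98 mice. Every PN98 ratio was below every PN21 ratio, with a log2 difference of −0.75 (exact permutation p = 0.0286, adjusted p = 0.143), and of −0.48 without m35. *Angpt2* over *Angpt1* was 0.957, 0.761, 2.12 and 0.928 at PN21 and 1.29, 0.309, 0.470 and 0.190 at PN98. Again m35 was the PN98 mouse within the PN21 range, and the log2 difference was −1.33 (exact permutation p = 0.114, adjusted p = 0.143).

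*Vegfa* over *Vegfb* was 2.20, 2.99, 2.82 and 1.45 at PN21 and 1.49, 1.57, 0.836 and 1.43 at PN98, a log2 difference of −0.82 (exact permutation p = 0.0857, adjusted p = 0.143). Only m145 among the PN21 mice came as low as the PN98 mice. *Tie1* over *Tek* differed by −0.63 (exact permutation p = 0.0857, adjusted p = 0.143) and *Kdr* over *Flt1* by −0.28 (exact permutation p = 0.257, adjusted p = 0.257). All 5 ratios were lower in mean at PN98; no gene stands in more than 1 of them, but all come from the same libraries.

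**Figure D4:**
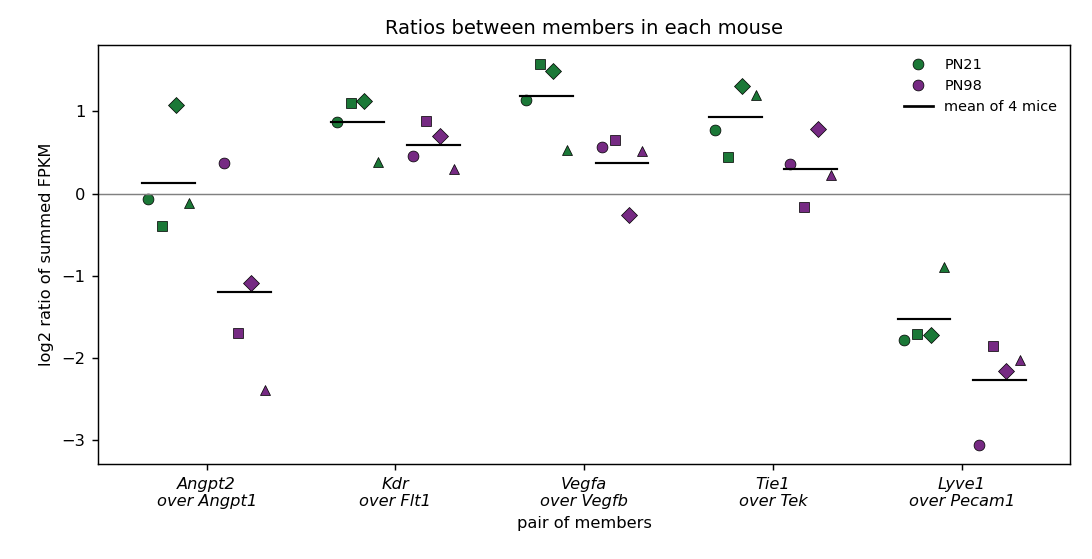
Log2 ratios of summed FPKM (y axis) for 5 pairs of genes in each mouse, PN21 in green and PN98 in purple, with the mean of 4 mice as a black line. The points of the ages are apart only for *Lyve1* over *Pecam1*, with m35 the lowest point at −3.06 and m145 the highest at −0.89.

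Isoforms of *Vegfa*, *Vegfb* and *Flt1* code for proteins with different properties, and the stretches that tell them apart are shown because the values below are assigned by them. All 3 are read from GENCODE vM21 transcripts on GRCm38, on the minus strand, and written in the sense of the mRNA. In *Vegfa* it is the 132-base coding exon that adds a heparin-binding part to the growth factor (sixth exon of the transcript *Vegfa-202*, usually numbered exon 7). In *Vegfb* it is a coding stretch of 101 bases in exon 6 of *Vegfb-201*, the 207-codon form, which the 188-codon *Vegfb-202* skips with another splice acceptor. In *Flt1* it is the last 92 coding bases of *Flt1-203*, which read on from exon 13 into the intron and end the 688-codon soluble receptor, in place of the membrane-spanning and kinase parts of the 1333-codon *Flt1-202*.
Vegfa chr17:46020991-46021122: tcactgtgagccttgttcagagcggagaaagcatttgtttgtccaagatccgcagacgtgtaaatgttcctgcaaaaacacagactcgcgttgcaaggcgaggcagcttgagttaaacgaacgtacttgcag
Vegfb chr19:6985496-6985596: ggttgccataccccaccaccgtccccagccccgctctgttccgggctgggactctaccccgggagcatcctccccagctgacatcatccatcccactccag
Flt1 chr5:147639133-147639224: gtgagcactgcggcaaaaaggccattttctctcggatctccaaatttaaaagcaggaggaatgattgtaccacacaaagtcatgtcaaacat

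Coding *Vegfa* transcripts with this exon made up 42.1%, 45.6%, 50.2% and 37.0% of the coding *Vegfa* FPKM in m1, m49, m138 and m145. In m35, m106, m114 and m125 the share was 65.0%, 55.1%, 53.4% and 50.2%. The lowest PN98 share, that of m125, lay just below the highest PN21 share, that of m138, so the ages overlapped, and the means were 43.7% ± 5.59 (SD, n = 4) and 55.9% ± 6.37 (SD, n = 4). This share was noticed after the values were seen and was not tested. In the fit on transcripts, *Vegfa-202* had a log2 fold change of 0.22 (adjusted p = 0.590) and *Vegfa-201*, without the exon, −0.36 (adjusted p = 0.476). Non-coding transcripts held 49.6% to 59.3% of the summed *Vegfa* FPKM.

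For *Vegfb*, both coding forms were higher in mean at PN98. The longer form held 37.8% ± 4.77 at PN21 and 40.7% ± 8.93 at PN98 (mean ± SD, n = 4 each), and the transcript fold changes were 0.85 for *Vegfb-201* (adjusted p = 0.219) and 0.69 for *Vegfb-202* (adjusted p = 0.214). The soluble *Flt1* form had 3.64, 2.58, 3.82 and 3.44 FPKM at PN21 and 4.80, 3.001, 2.52 and 3.19 FPKM at PN98, so that the PN98 range enclosed the PN21 range. Its share beside the full-length form was 28.3% ± 2.73 (SD, n = 4) and 30.0% ± 5.21 (SD, n = 4). Isoform values are estimates in which reads from shared exons are divided by a model, which adds an error that the SD between mice does not show in full.

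**Figure D5:**
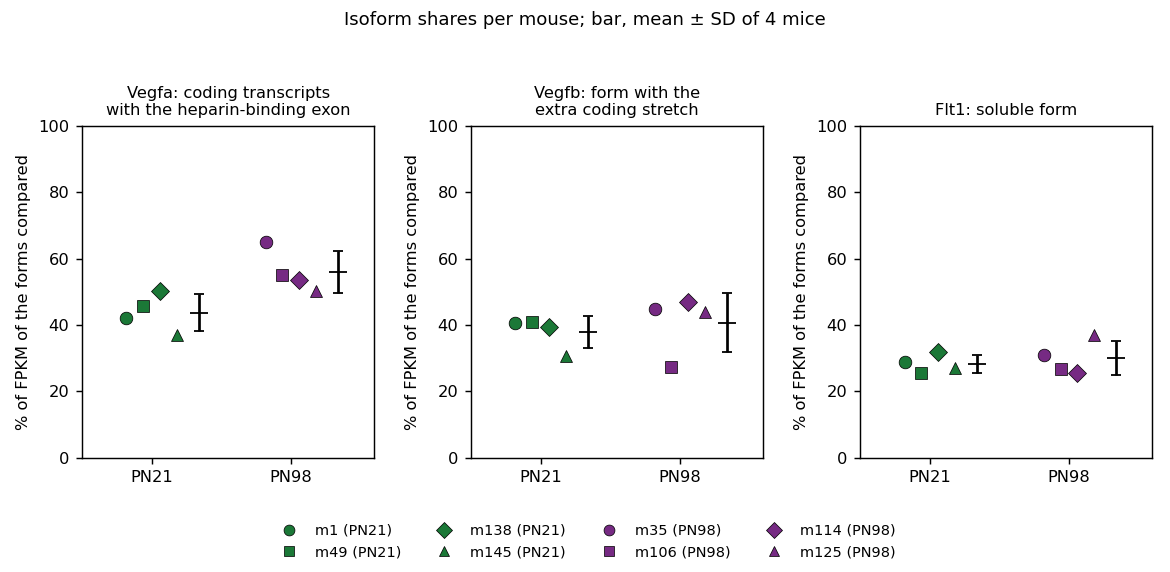
Share of the coding FPKM (y axis, 0 to 100%) held by the *Vegfa* transcripts with the 132-base exon, by the *Vegfb* form with the 101-base stretch and by the soluble *Flt1* form, in each mouse, with mean ± SD (n = 4). The *Vegfa* share lies at 50.2% to 65.0% in the PN98 mice and at 37.0% to 50.2% in the PN21 mice, so that the ages overlap slightly at that value, and the other 2 shares overlap more widely.

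On single transcripts, 63 transcripts of 32 of these genes were above 0 FPKM in every mouse and above a mean of 2 FPKM at one age. In limma 0 of the 63 passed an adjusted p of 0.05, where 1.42% of all 22870 transcripts did, and 7 had an unadjusted p under 0.05 (21.8% of all transcripts). These 7 were 5 lower and 2 higher transcripts of 6 genes. The lower ones belonged to *Lyve1*, *Plvap*, *Egfl7*, *Pecam1* and *Angpt2*, and both higher ones were the *Vegfb* forms. The lowest adjusted p was 0.112, that of the single *Lyve1* transcript.

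Beside the set stand 85 other genes of vessel signalling, endothelium, lymphatics and mural cells, of which 84 were in the table and 77 were tested. Of the 77, 60 were lower and 17 higher in mean, with a median of −0.42 beside −0.21 for all genes. The adjusted test was passed by 3, 2 higher and 1 lower, where 2.35% of all genes were called higher and 2.93% lower. *Cd36*, a fatty acid translocase of capillary endothelium and also of adipocytes, had 389, 424, 352 and 349 FPKM at PN21 and 823, 1001, 922 and 588 FPKM at PN98. It rose by 1.11 (standard error 0.19, adjusted p = 0.0210), without overlap. *Mcam*, an adhesion protein of endothelium and pericytes, had 65.6, 41.7, 45.2 and 43.4 FPKM at PN21 and 156, 112, 174 and 84.5 FPKM at PN98, and rose by 1.38 (standard error 0.27, adjusted p = 0.0270). In *Mcam* too the lowest PN98 mouse was m125. *Kcnj8*, a potassium channel subunit of pericytes, had 17.8, 13.3, 17.2 and 20.5 FPKM at PN21 and 9.86, 6.41, 4.81 and 5.60 FPKM at PN98. It fell by 1.27 (standard error 0.23, adjusted p = 0.0225), also without overlap. All 3 kept their direction in every alternative. The call was lost for *Cd36* without m1, m106, m114, m138 or m145 (1.02 to 1.27 over all mice left out), for *Mcam* without m49, m106, m114, m138 or m145 (1.23 to 1.57) and for *Kcnj8* without any mouse but m35 and m49 (−1.45 to −1.15).

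By group, 11 of 13 tested genes of Notch and ephrin signalling, 10 of 11 other mural genes and 4 of 4 other lymphatic genes were lower in mean, with medians of −0.42, −0.62 and −0.84. Called genes in these groups numbered 0, 1 (*Kcnj8*) and 0. Of 11 genes of apelin, sphingosine, adrenomedullin, endothelin and BMP9 signalling 9 were lower, of 11 other endothelial transcription factors 9, and of 5 other VEGF family genes 3, with 0 called in each. In the group of 22 surface and capillary genes, 14 were lower and 8 higher, and both genes called were higher. With m35 left out, 25 of the list were called lower and 3 higher, where 18.1% of all genes were called lower and 4.3% higher.

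Some genes of adipocytes and of dividing cells passed the test between the ages, where 2.35% of all genes were called higher and 2.93% lower. Of 10 genes of white and brown adipocytes, 7 were higher in mean and 2 passed the test, *Adipoq* (1.45, adjusted p = 0.0111) and *Cidec* (2.16, adjusted p = 0.00213). The other 3 were lower, *Ucp1* (−2.81, adjusted p = 0.149, without overlap), *Cidea* (−0.67, adjusted p = 0.619) and *Pparg* (−0.26, adjusted p = 0.597). The summed level of the 10 genes went from 3856 to 6447 FPKM at PN21 to between 8891 and 11213 FPKM at PN98. All 10 dividing-cell genes were lower and 9 passed, with sums of 103 to 175 FPKM at PN21 and 9.45 to 41.5 FPKM at PN98. All 9 skeletal muscle genes in the table were higher in mean and 2 passed, with sums of 32.5 to 791 FPKM at PN21 and 543 to 3673 FPKM at PN98. The summed level of 7 mammary and skin epithelium genes was 3.83 to 61.3 FPKM at PN21 and 1.70 to 2.84 FPKM at PN98, where *Krt14* was listed at 0 in all 4 mice and 1 of 5 tested genes was called lower. For 6 Schwann cell genes the sums were 134 to 331 and 36.1 to 74.0 FPKM with 2 of 5 called lower, and for 7 adipose progenitor genes 469 to 687 and 256 to 651 FPKM with 1 called lower. The part of these cells in the values of the vascular genes was not tested.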

How the data were processed

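Poly(A)+ RNA of the inguinal depot of 4 PN21 and 4 PN98 mice was sequenced in paired-end reads with a strand-specific kit. According to the submitters' notes and the study's methods, reads were processed with CASAVA 1.8.2, mapped to mm10 (GRCm38) with STAR 2.3.0 and quantified with Cufflinks 2.1.1. The deposited values are FPKM per transcript, in a table where many values had lost their decimal mark. The unit was recorded as other for that reason, and a summary score, average and SD that the authors deposited beside the values were used to restore the marks. Of 91969 transcripts, 40426 had an open value, 40379 had a single reading, 22 were filled from intact values of the second deposited table and 25 were left out. All 5007 restored transcripts also present there were equal in all 8 mice. That second table also holds the authors' fold changes and p-values, which were not used. FPKM were summed per gene with GENCODE vM21, and 1304 transcripts with several genes were left out. The summary statistics cover 10 columns, 2 of which are not analysed here.

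Genes were tested with limma 3.58.1 (R 4.3.3) on log2(FPKM + 1) at a mean of at least 1 FPKM, and transcripts on log2(FPKM) with the study's filter. The scripts were tested on simulated data. Ratios were tested with SciPy 1.17.1. Alternatives changed the pseudocount, the filter, the scaling, the limma options, the transcripts summed and the mice. All 34 genes are accounted for, with per-mouse values for 12 genes named whatever their values and for genes past the threshold. Other genes given by mouse were chosen after their values were seen, and at most 12 called genes of the pathway list were to be named. The genes and lists were chosen with earlier results of these data known. *Foxc2* and *Acta1* were not analysed here.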

Additional observations from a re-analysis of the deposited data

Results flagged for a closer look

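Single mice far from the other 3 of their age, by a Dixon ratio above its 95% critical value, were found in 5 of 90 groups of 4 values, and chance gives about 1 in 20. In PN98, *Cspg4* was highest in m125 at 12.7 FPKM, and *Vegfa* over *Vegfb* was lowest in m114 at 0.836. In PN21, *Lyve1* over *Pecam1* was highest in m145 at 0.540. The share of the longer *Vegfb* form was lowest in m145 at PN21, 30.7%, and lowest in m106 at PN98, 27.4%.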

How the results depend on the processing

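No paired analysis was possible because the labels number each mouse once and no number is shared between the ages. Called genes of the set numbered 0 lower and 0 higher, 5 lower with limma arrayWeights (m35 had the lowest weight, 0.347), 1 lower (*Lyve1*, adjusted p = 0.0337) with non-coding transcripts left out, an alternative chosen after seeing the data, and 0 to 4 lower and 0 to 1 higher when 1 mouse was left out, the highest without m35. For the pathway list, 1 lower and 2 higher became 24 and 5 with arrayWeights, 4 higher with median of ratios scaling, and 0 to 25 lower and 0 to 3 higher without single mice. All genes called, 472 lower and 378 higher, became 3495 and 1153 with arrayWeights, 269 lower with a mean of at least 5 FPKM, 264 lower with scaling to nuclear genes, 742 higher with median of ratios scaling, and 95 to 2907 lower and 97 to 692 higher without single mice. Called transcripts of the set, 0 lower, numbered 0 to 3 without single mice, the highest without m35. For that fit the share of all transcripts called is not given, so the 3 cannot be set against it. The cause of these differences between settings was not tested. The 5 ratios kept their sign in every alternative. With the highest transcript of each gene in place of the sum, *Vegfa* over *Vegfb* went from −0.82 to −0.46 (exact permutation p = 0.257) and *Tie1* over *Tek* from −0.63 to −1.19 (exact permutation p = 0.0286, adjusted p = 0.143). Without single mice *Lyve1* over *Pecam1* ran from −0.89 to −0.48 (without m35), *Kdr* over *Flt1* from −0.44 (without m145) to −0.19 (without m125), and with 7 mice their test cannot give a p below 0.0571. Of 508 fold changes of the set under alternatives, 454 kept their sign and side of the threshold, 11 were called and 43 changed sign, in 15 genes. With median of ratios scaling these were *Flt1* 0.059, *Tek* 0.16, *Robo4* 0.078, *Sox17* 0.12, *Erg* 0.031, *Vegfa* 0.14, *Rgs5* 0.12 and *Cspg4* 0.00040, and with scaling to nuclear genes 0.11, 0.21, 0.13, 0.17, 0.075, 0.19, 0.17 and 0.041. With arrayWeights *Aqp1* had −0.068, *Nos3* −0.044 and *Tek* 0.012, and with non-coding transcripts left out *Tek* had 0.0093. Leaving out single mice gave −0.61 to 0.0018 for *Cdh5*, −0.14 to 0.68 for *Cldn5*, −0.55 to 0.035 for *Mmrn2*, −0.23 to 0.30 for *Aqp1*, −0.68 to 0.15 for *Vwf*, −0.038 to 0.28 for *Nos3*, −0.27 to 0.25 for *Tek*, −0.35 to 0.15 for *Robo4*, −0.093 to 0.27 for *Ptprb*, −0.25 to 0.080 for *Sox17*, −0.23 to 0.014 for *Vegfa* and −0.34 to 0.19 for *Rgs5*. With the sign kept, the differences were lowest without m35 and nearest 0 without m125 for *Pecam1* (−0.89 to −0.20), *Icam2* (−1.21 to −0.43), *Tie1* (−0.89 to −0.32), *Angpt2* (−1.03 to −0.46), *Egfl7* (−0.76 to −0.27), *Sox18* (−0.77 to −0.18), *Eng* (−0.63 to −0.11), *Vegfc* (−0.65 to −0.13), *Flt4* (−0.63 to −0.23), *Pdpn* (−0.58 to −0.25), *Esam* (−0.48 to −0.085), *Erg* (−0.38 to −0.022) and *Flt1* (−0.31 to −0.037). *Kdr* ran from −0.56 (without m145) to −0.22 (without m125), *Cspg4* from −0.43 (without m125) to −0.044 (without m1) and *Angpt1* from 0.027 (without m114) to 0.26 (without m35). With a pseudocount of 0.1 in place of 1, the low genes *Flt4*, *Vegfc* and *Angpt2* had −0.71, −0.74 and −1.05, beside −0.42, −0.41 and −0.73, and none was called. Depth is unknown, so no limit of detection is given.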
